A study of Mus musculus with 14 samples.

Results

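The genes described are 32 that add, remove or read acetyl groups on the lysines of histones and other proteins: 11 zinc-dependent deacetylases (Hdac1 to Hdac11), 7 sirtuins (Sirt1 to Sirt7), 10 acetyltransferases, and 4 readers and corepressor scaffolds (Brd2, Brd3, Sin3a and Ncor1). They were selected by gene symbol and function, with earlier results of these data known. Of the 32 genes, 31 had a probe set with that symbol alone among the 18193 genes named in this way on the array. A filter on low signals left 30 of them among 10916 genes tested. Ncor1, the scaffold that holds Hdac3 at repressed genes, was named by no probe set of its own and was not analysed here. Hdac9, a class IIa deacetylase, had a mean signal of 2.19 over all arrays, below the filter at 9.11, and was not tested.

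Acetyltransferases move an acetyl group from acetyl-CoA to a lysine, which in histones marks active promoters and enhancers. Zinc-dependent deacetylases and the NAD-dependent sirtuins take it off again, and bromodomain proteins such as Brd2 bind the acetylated lysine. In CD4 T cells these enzymes also act on lineage transcription factors, Foxp3 among them. Acetate can be turned into acetyl-CoA, and several short chain fatty acids are known inhibitors of zinc-dependent deacetylases. The arrays measured the RNA of these genes, not enzyme activity or acetylation.

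CD4 T cells of mouse spleen and lymph nodes were cultured for 5 days under conditions for Th17, Treg or Th1 cells, with a short chain fatty acid at 10 mM or without it, and their total RNA was hybridised to Affymetrix arrays. Th17 cultures gave 3 acetate and 3 control arrays, Treg cultures 2 acetate and 2 control arrays, and Th1 cultures 2 acetate and 2 control arrays. Every culture received human IL-2 at 100 U/ml. Human TGF-b1 at 5 ng/ml was added in Th17 and Treg cultures. Th17 cultures also had mouse IL-6 and TNF-a at 20 ng/ml each, IL-1b, IL-23 and IL-21 at 10 ng/ml each, and antibodies to IL-4 and IFN-gamma, while Th1 cultures had mouse IL-12 at 10 ng/ml and the antibody to IL-4. For treated Treg and Th1 cultures the protocols name acetone in place of the sodium acetate of the study's design. The design also gives a longer culture than the protocols do. All treated samples are called acetate samples here. The labels do not say whether arrays of 1 group came from separate mice or cultures, so that p-values here cover the spread between arrays only, which may be technical.

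Signals were MAS5 intensities with trimmed means between 53.2 and 116 per array, and were quantile normalized before the comparisons. Arrays of 1 group correlated at 0.940 to 0.983 over the genes tested, across 10 pairs. The labels were set against lineage genes. Il17a averaged 4335 and 652 in Th17 acetate and control arrays and at most 13.4 in the other groups. Foxp3 averaged 59.1 and 332 in Treg acetate and control arrays, against 82.8 in Th17 controls and at most 14.2 elsewhere. Ifng averaged 9986 and 1937 in Th1 acetate and control arrays, 2788 and 1168 in Treg and 1227 and 667 in Th17 arrays. Tbx21 averaged 439 and 315 in Th1, 189 and 190 in Treg and 131 and 54.1 in Th17 arrays. Foxp3 thus did not set Treg acetate arrays above Th17 controls, nor Ifng Th1 controls above Treg acetate arrays. The summed signal of 7 T cell markers was lower in every acetate group, at 9787 to 12500 against 13530 to 14850 in Th17 controls, 12350 to 13050 against 15770 to 17910 in Treg controls, and 11100 to 12210 against 15000 to 15300 in Th1 controls. Cd28 went the other way, called higher with acetate in Th17 cultures (0.87, adjusted p = 0.00122) and in the mean effect (0.45, adjusted p = 0.00282), and Thy1 averaged 4237 in Th1 acetate arrays against 3890 in Th1 controls. CD8 T cell markers (Cd8a and Cd8b1) summed to 180 to 332 in Th17 acetate arrays against 51.6 to 179 in Th17 controls, 259.8 to 268 in Treg acetate arrays against 196 to 217 in Treg controls, and 62.3 to 105 in Th1 acetate arrays against 36.6 to 62.7 in Th1 controls. Cd8b1 was called higher in Th17 cultures and in the mean effect (1.20, adjusted p = 0.000562). Myeloid markers (6 genes) summed to 96.7 to 187 in Th17 acetate arrays against 73.1 to 92.4 in Th17 controls and to 191 to 220 in Treg acetate arrays against 124 to 149 in Treg controls, and overlapped in Th1 cultures, at 132 to 204 against 104 to 174. Of these genes Cd68 was called higher in Th17 cultures, at a mean of 91.5 against 18.03 in Th17 controls. The other 3 myeloid genes tested had lower means there, with Csf1r at 27.3 against 35.2, Adgre1 at 8.12 against 10.5 and Itgax at 5.29 against 9.54, and Lyz2 stayed at or below 13.3 on every array. NK cell markers (Ncr1 and Klrd1) summed to 713 to 873 in Treg acetate arrays against 1182 to 1668 in Treg controls, to 298 to 1016 in Th17 acetate arrays against 822 to 1263 in Th17 controls, and to 308 to 506 in Th1 acetate arrays against 293 to 295 in Th1 controls, with Ncr1 at or below 9.01 on every array. Mast cell markers (4 genes) summed to 29.8 to 40.2 in Th17 acetate arrays against 72.0 to 104 in Th17 controls, with Kit called lower, and overlapped in Treg cultures (54.8 to 66.4 against 61.5 to 137) and Th1 cultures (18.7 to 22.4 against 12.3 to 31.1), and B cell markers (4 genes) to between 32.5 and 95.2 on every array. The ratio of the 3' to the 5' Gapdh control was 1.22 and 1.23 in the Treg controls and 0.986 to 1.10 in all other arrays. The same ratio of the Actb control was 1.42 and 1.33 in the Treg controls and 1.10 to 1.40 in all other arrays, with overlap. The part of these differences in the results below was not tested. Fewer cells of a type and less RNA per cell cannot be told apart in such bulk RNA.

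Acetate moved members of every enzyme family in Th17 cultures, and in Treg cultures every call was a decrease. In Th17 cultures 10 of the 30 genes passed limma's moderated test at an adjusted p under 0.05 (Benjamini-Hochberg over all genes tested, as for every adjusted p here). Hdac1, Hdac5, Sirt2 and Sirt4 rose, and Hdac10, Sirt1, Kat2a, Kat2b, Kat6a and Crebbp fell. Among all genes tested 20.3% passed in Th17 cultures, 11.7% higher and 8.66% lower against 10 of 30 (33.3%) here, 4 higher and 6 lower. In Treg cultures Hdac10, Sirt1, Kat2b, Kat6a, Crebbp and Brd2 fell, 6 of 30 against 12.5% of all genes, 7.04% called higher and 5.44% called lower. In Th1 cultures Crebbp alone fell, 1 of 30 or 3.33%, close to the 3.98% of all genes called there (2.07% higher and 1.91% lower). In the mean of the 3 acetate effects, with equal weight per subset, 11 of 30 genes passed, 4 higher and 7 lower, against 31.8% of all genes (17.6% higher and 14.1% lower), a share near the background. The median log2 difference of the 30 genes was -0.08 for Th17, 0.01 for Treg and -0.21 for Th1 cultures, beside 0.01, 0.03 and 0.03 for all genes tested. Acetate arrays lay wholly above or below control arrays for 14 of the 30 genes for Th17, 20 for Treg and 13 for Th1 cultures, against 41.1%, 64.8% and 43.1% of all genes, so these counts are near the background too.

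The split of calls depended on the scaling between arrays. On the signals as deposited the median of all genes shifted to -0.29 for Th17, -0.13 for Treg and 0.23 for Th1 cultures. Genes called higher and lower then numbered 467 and 1461 in Th17, 252 and 298 in Treg 178 and 45 in Th1 cultures and 1015 and 1288 in the mean effect, beside 1275 and 945, 769 and 594, 226 and 209, and 1925 and 1544 after quantile normalization. Of the 30 genes, 0 were then called higher and 8 lower in Th17 cultures, 2 (Kat2b and Crebbp) lower in Treg cultures and 0 in Th1 cultures. The decreases of Sirt1, Kat2a, Kat2b, Kat6a and Crebbp in Th17 cultures and of Kat2b and Crebbp in Treg cultures passed under this and all 20 other alternatives tried.

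**Figure D1:**
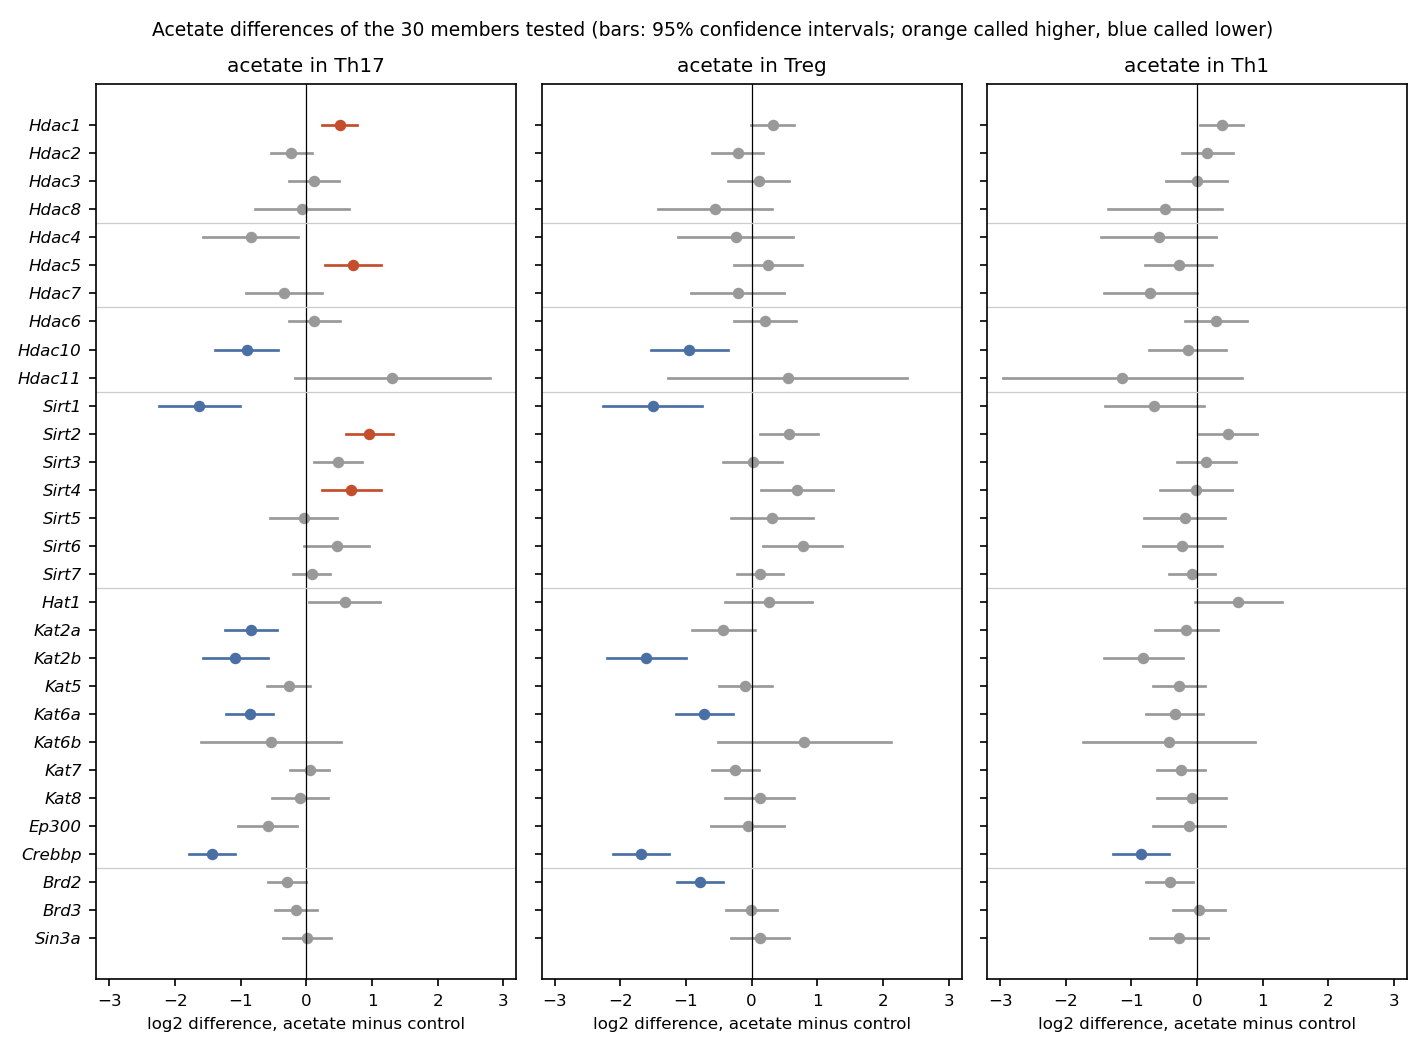
Log2 difference (acetate minus control, on the log2(signal + 3) scale) of each of the 30 genes tested in Th17, Treg and Th1 cultures, with 95% confidence intervals; thin lines separate the families. Crebbp lies left of 0 in all 3 panels and is called in each, and most intervals cross 0.

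Among the class I deacetylases, Hdac1 rose with acetate in Th17 cultures, whereas Hdac2, Hdac3 and Hdac8 did not pass in any acetate comparison. Hdac1 and Hdac2 are the paired catalytic subunits of the NuRD, Sin3 and CoREST complexes, and Hdac3 is the enzyme of the Ncor complexes. Normalized signals of Hdac1 were 921, 779 and 817 in Th17 acetate arrays, against 637, 609.9 and 522 in Th17 control arrays. Treg cultures had 712 and 737 with acetate against 620.5 and 542 in controls, and Th1 cultures 781 and 748 with acetate against 620.5 and 559 in controls. All acetate arrays of a subset were above its controls, by a modest amount. The log2 difference was 0.51 ± 0.12 in Th17 cultures (SE; adjusted p = 0.0125, limma), 0.32 ± 0.15 in Treg (adjusted p = 0.199) and 0.37 ± 0.15 in Th1 (adjusted p = 0.174), with a mean effect of 0.40 ± 0.08 (adjusted p = 0.00287). The Th17 call was lost on the signals as deposited (log2 difference 0.22, adjusted p = 0.566) and without Th17 control replicate 3 (0.42, adjusted p = 0.0655), and the mean effect on the signals as deposited (0.41, adjusted p = 0.0799).

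Hdac2 had 245, 217 and 189 in Th17 acetate arrays, against 244, 263 and 252 in Th17 controls, and the 2 groups overlapped. Its 95% confidence intervals for the acetate difference were -0.54 to 0.09 in Th17, -0.60 to 0.18 in Treg and -0.23 to 0.55 in Th1 cultures. Hdac3 signals overlapped between acetate and control arrays in every subset, with intervals of -0.27 to 0.50, -0.36 to 0.58 and -0.48 to 0.46. The log2 differences themselves were -0.23, -0.21 and 0.16 for Hdac2 and 0.11, 0.11 and -0.01 for Hdac3, and all of these intervals include 0. Hdac8, a class I enzyme that deacetylates cohesin, averaged 27.7 ± 7.4 in Th17 acetate arrays against 29.4 ± 9.32 in Th17 controls (SD, n = 3 each) and did not pass in any subset.

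The class IIa deacetylases Hdac4, Hdac5 and Hdac7 have little catalytic activity of their own and shuttle between nucleus and cytoplasm as signal-dependent corepressors. Hdac5 rose in Th17 cultures, with signals of 139.8, 149.6 and 123 in acetate arrays against 72.3, 84.1 and 92.3 in controls. Every acetate array was above every control there. Treg cultures had 124 and 127 with acetate against 116 and 95.8 in controls, and Th1 cultures 112 and 97.0 with acetate against 97.6 and 166 in controls, so that Th1 groups overlapped. The log2 difference of Hdac5 was 0.71 ± 0.20 for Th17 (adjusted p = 0.0216), 0.25 ± 0.24 for Treg and -0.28 ± 0.24 for Th1 cultures. The Th17 call was lost on the signals as deposited (0.36, adjusted p = 0.386) and without Th17 acetate replicate 2 (adjusted p = 0.0756), Th17 control replicate 1 (adjusted p = 0.0875) or Th17 control replicate 2 (adjusted p = 0.0577). Hdac4 averaged 62.5 ± 29.1 in Th17 acetate arrays against 106 ± 18.1 in Th17 controls (SD, n = 3 each), and its log2 difference was -0.85 ± 0.33 (adjusted p = 0.0873), short of the threshold; on the signals as deposited it was called lower (-1.24, adjusted p = 0.0224). Hdac7, the class IIa enzyme best known from thymocytes, averaged 462 ± 147 in Th1 acetate arrays against 762 ± 258 in Th1 controls (SD, n = 2 each), with -0.71 ± 0.33 as the log2 difference (adjusted p = 0.225).

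Of the class IIb and IV enzymes, Hdac10 fell in Th17 and Treg cultures. Hdac10 removes acetyl groups from polyamines, Hdac6 from tubulin in the cytoplasm, and Hdac11, the one class IV enzyme, removes fatty acyl groups. Hdac10 had 32.3, 54.3 and 45.5 in Th17 acetate arrays against 86.7, 76.8 and 87.3 in Th17 controls, and 47.3 and 31.4 in Treg acetate arrays against 74.9 and 79.6 in Treg controls. Groups did not overlap in these 2 subsets. Th1 acetate arrays had 60.9 and 75.8 against 63.5 and 89.2 in Th1 controls, which overlapped. Log2 differences were -0.91 ± 0.22 in Th17 (adjusted p = 0.0125), -0.95 ± 0.27 in Treg (adjusted p = 0.0372) and -0.14 ± 0.27 in Th1 cultures (adjusted p = 0.807), and the mean effect was -0.67 ± 0.15 (adjusted p = 0.00431). Hdac10 has a second probe set with a mean signal of 2.37, near the bottom of the scale, whose mean effect was 0.07. Averaging both probe sets ended the calls (Th17 -0.41, adjusted p = 0.384; Treg -0.40, adjusted p = 0.558; mean effect -0.30, adjusted p = 0.288). The Treg call was also lost on the signals as deposited (adjusted p = 0.0933), without the filter on low values (adjusted p = 0.0698), with a replicate block (adjusted p = 0.0629) and without any 1 of 7 arrays, all 4 Treg arrays and the 3 Th17 controls, with adjusted p values of 0.0525 to 0.246.

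Hdac6 had 79.4, 92.8 and 70.5 in Th17 acetate arrays against 84.5, 74.0 and 63.8 in Th17 controls, with overlap, and did not pass in any acetate comparison. Hdac11 varied widely between arrays of the same group, with 7.30, 23.7 and 30.4 in Th17 acetate arrays against 4.75, 13.7 and 1.65 in Th17 controls. Its interval of -0.18 to 2.80 in Th17 cultures covers anything between no change and a large increase.

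Sirtuins moved both ways. Sirt1, the nuclear sirtuin that acts on histones, p53 and Foxp3, fell in Th17 and Treg cultures, while the mainly cytoplasmic Sirt2 and the mitochondrial Sirt4 rose in Th17 cultures. Sirt1 had 9.15, 6.97 and 11.2 in Th17 acetate arrays against 47.2, 24.7 and 33.9 in Th17 controls. Treg acetate arrays had 10.8 and 10.1 against 40.3 and 30.9 in Treg controls, and Th1 acetate arrays 13.9 and 21.6 against 32.7 and 25.6 in Th1 controls. Acetate arrays were below controls in all 3 subsets. The log2 difference was -1.63 ± 0.29 in Th17 (a ratio of 0.32 on the signal + 3 scale; adjusted p = 0.00205), -1.51 ± 0.35 in Treg (adjusted p = 0.0143) and -0.65 ± 0.35 in Th1 cultures, which did not pass (adjusted p = 0.302). The mean effect was -1.26 ± 0.19 (adjusted p = 0.00035). The added 3 makes the difference smaller than the ratio of the signals themselves, since Sirt1 is dim. Its acetate signals in Th17 and Treg cultures lay near the filter at 9.11, which limits how well either ratio is known. Sirt1 has 1 probe set, so no other could be compared. The Treg call was lost on the signals as deposited (-1.65, adjusted p = 0.0551) and without Treg acetate replicate 1 (adjusted p = 0.081), Treg acetate replicate 2 (adjusted p = 0.0735), Treg control replicate 1 (adjusted p = 0.118) or Treg control replicate 2 (adjusted p = 0.0532).

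Sirt2, a tubulin and histone deacetylase, had 917, 1007 and 758 in Th17 acetate arrays against 381, 538 and 458 in Th17 controls. Treg acetate arrays had 532 and 548 against 351 and 377 in Treg controls, and Th1 acetate arrays 766 and 541 against 484 and 442 in Th1 controls. The acetate arrays of each subset all exceeded their controls. Sirt2 differed by 0.96 ± 0.17 in Th17 (adjusted p = 0.00205), 0.57 ± 0.21 in Treg (adjusted p = 0.0916) and 0.47 ± 0.21 in Th1 cultures (adjusted p = 0.2), and its mean effect was 0.67 ± 0.11 (adjusted p = 0.000735). That mean effect passed under all 21 alternatives, and the Th17 call under all but the signals as deposited (0.65, adjusted p = 0.0563).

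Sirt4, which restrains glutamate dehydrogenase in mitochondria, had 40.5, 30.1 and 29.3 in Th17 acetate arrays against 19.1, 20.8 and 18.4 in Th17 controls, and 31.97 and 30.4 in Treg acetate arrays against 18.2 and 18.1 in Treg controls. Th1 groups overlapped, at 26.0 and 27.9 with acetate against 29.6 and 24.96 in controls. The difference was 0.68 ± 0.21 in Th17 (adjusted p = 0.0338), 0.69 ± 0.25 in Treg (adjusted p = 0.0929) and -0.01 ± 0.25 in Th1 cultures, with a mean effect of 0.45 ± 0.14 (adjusted p = 0.0234). The Th17 call was lost on the signals as deposited (adjusted p = 0.348), without the filter on low values (adjusted p = 0.104), with a replicate block (adjusted p = 0.0561) and without any 1 of 5 Th17 arrays, all but acetate replicate 3 (adjusted p values of 0.0591 to 0.117). The mean effect was lost on the signals as deposited (adjusted p = 0.297), without the filter on low values (adjusted p = 0.0786), with a common trimmed mean (adjusted p = 0.0508) and without Treg acetate replicate 1, either Treg control, Th1 acetate replicate 2 or Th1 control replicate 2 (adjusted p values of 0.05 to 0.0582).

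The remaining sirtuins did not pass in any acetate comparison. Sirt3, the main mitochondrial deacetylase, averaged 98.6 ± 1.51 in Th17 acetate arrays against 69.9 ± 4.9 in Th17 controls (SD, n = 3 each), with a log2 difference of 0.48 ± 0.17 (adjusted p = 0.0619). Sirt6, a chromatin deacetylase with roles in glycolysis and DNA repair, had 120.0 and 127 in Treg acetate arrays against 52.1 and 95.9 in Treg controls, a difference of 0.78 ± 0.28 (adjusted p = 0.0882). Sirt5, which removes succinyl and malonyl groups in mitochondria, averaged between 51.9 and 77.9 over the 6 groups. Sirt7, a nucleolar enzyme, averaged between 336 and 450.

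Among the 10 acetyltransferases every call but 1 was a decrease. In Th17 cultures Kat2a, Kat2b, Kat6a and Crebbp fell, 4 of 10, and 0 rose, where 8.66% of all genes were called lower. In Treg cultures Kat2b, Kat6a and Crebbp fell, 3 of 10 against 5.44%, and in Th1 cultures Crebbp, 1 of 10 against 1.91%. In the mean effect 4 fell and Hat1 rose. Their median log2 difference was -0.56 for Th17, -0.17 for Treg and -0.26 for Th1 cultures.

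Crebbp encodes CBP, a large coactivator that acetylates histones at enhancers, and had the lowest adjusted p of the 30 genes in every acetate comparison. Signals were 88.3, 105 and 93.4 in Th17 acetate arrays against 232, 292 and 274 in Th17 controls. They were 68.2 and 92.0 in Treg acetate arrays against 289.6 and 238 in Treg controls, and 98.5 and 92.7 in Th1 acetate arrays against 172 and 178 in Th1 controls. No acetate array reached a control array in any subset, and the Th1 controls were below those of both other subsets. The log2 difference was -1.44 ± 0.16 in Th17 (a ratio of 0.37; adjusted p = 0.000166), -1.69 ± 0.20 in Treg (0.31; adjusted p = 0.000441) and -0.85 ± 0.20 in Th1 cultures (0.55; adjusted p = 0.0361), and the mean effect was -1.33 ± 0.11 (adjusted p = 7.71e-06). The Th17, Treg and mean calls passed under all 21 alternatives. The Th1 call was lost in 10 of them: on the signals as deposited (-0.66, adjusted p = 0.298), with all probe sets averaged (-0.74, adjusted p = 0.0671), with a replicate block (adjusted p = 0.0668), and without any 1 of 7 arrays, which were Th1 acetate replicate 2, both Th1 controls, both Treg controls and Th17 control replicates 2 and 3 (adjusted p values of 0.052 to 0.151).

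Ep300, which encodes p300, the closest relative of CBP, did not pass. Its signals were 138, 166 and 220.5 in Th17 acetate arrays against 299, 267 and 219.6 in Th17 controls. Treg acetate arrays had 186 and 195 against 211 and 188 in Treg controls, and Th1 acetate arrays 179.9 and 111 against 160.0 and 148 in Th1 controls. Groups overlapped in all 3 subsets. The log2 difference was -0.59 ± 0.21 in Th17 (adjusted p = 0.0622), -0.06 ± 0.26 in Treg (interval -0.61 to 0.49) and -0.12 ± 0.26 in Th1 cultures (interval -0.67 to 0.43). In Th17 cultures it was called lower on the signals as deposited (-0.95, adjusted p = 0.0354) and without Th17 acetate replicate 3 (-0.77, adjusted p = 0.0265) or either Th1 acetate array (adjusted p = 0.0333 and 0.033). The difference between the changes of Crebbp and Ep300 was not tested.

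Kat2a (GCN5) and Kat2b (PCAF) are the paralogous enzymes of the SAGA and ATAC complexes. Kat2b had 55.1, 52.9 and 106 in Th17 acetate arrays against 155, 148 and 137 in Th17 controls, and 67.7 and 71.4 in Treg acetate arrays against 218 and 217 in Treg controls. Th1 acetate arrays had 74.2 and 59.6 against 106 and 134 in Th1 controls. Acetate arrays were below controls in every subset, and Th17 acetate replicate 3 stood nearest to its controls. The difference was -1.08 ± 0.23 in Th17 (adjusted p = 0.00583), -1.61 ± 0.28 in Treg (adjusted p = 0.00326) and -0.82 ± 0.28 in Th1 cultures (adjusted p = 0.113), with a mean effect of -1.17 ± 0.15 (adjusted p = 0.000133). Kat2a had 93.5, 67.8 and 89.9 in Th17 acetate arrays against 163, 137 and 156 in Th17 controls, without overlap. Treg acetate arrays had 115 and 78.8 against 128 and 131 in Treg controls, and Th1 acetate arrays 95.9 and 105 against 124 and 102 in Th1 controls, where the groups overlapped. Kat2a differed by -0.85 ± 0.18 for Th17 (adjusted p = 0.00636), -0.43 ± 0.22 for Treg and -0.16 ± 0.22 for Th1 cultures, and its mean effect was -0.48 ± 0.12 (adjusted p = 0.00883).

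Of the MYST family, Kat6a (MOZ) fell in Th17 and Treg cultures, and Kat5 (Tip60), Kat6b (MORF), Kat7 (HBO1) and Kat8 (MOF) did not pass in any acetate comparison. Kat6a had 98.5, 84.8 and 121 in Th17 acetate arrays against 174, 202 and 179 in Th17 controls, and 113 and 123 in Treg acetate arrays against 179 and 215 in Treg controls. Th1 acetate arrays had 113 and 123 against 136 and 166 in Th1 controls. Every acetate array was below the controls of its subset. The difference was -0.86 ± 0.17 in Th17 (adjusted p = 0.00342), -0.72 ± 0.20 in Treg (adjusted p = 0.0346) and -0.34 ± 0.20 in Th1 cultures (adjusted p = 0.349), with a mean effect of -0.64 ± 0.11 (adjusted p = 0.000864). The Treg call was lost on the signals as deposited (-0.89, adjusted p = 0.12), with all probe sets averaged (-0.53, adjusted p = 0.219), without the filter on low values (adjusted p = 0.0521), with a replicate block (adjusted p = 0.0515), and without any 1 of the 4 Treg arrays or Th17 control replicates 1 or 3 (adjusted p values of 0.0511 to 0.226). Kat5 differed by -0.27, -0.09 and -0.27 in Th17, Treg and Th1 cultures, Kat7 by 0.05, -0.25 and -0.24, and Kat8 by -0.10, 0.12 and -0.08. Kat6b ranged between 19.1 and 104 among Th17 acetate arrays alone, and its differences of -0.54, 0.80 and -0.43 had SEs of 0.50, 0.61 and 0.61.

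Hat1, which acetylates newly made histones before they enter chromatin, was called higher in the mean effect alone. Its signals were 402, 179.5 and 197 in Th17 acetate arrays against 152, 159 and 172 in Th17 controls. Treg acetate arrays had 291 and 240.0 against 209 and 233 in Treg controls, and Th1 acetate arrays 308 and 423 against 219 and 246 in Th1 controls. Acetate arrays exceeded controls in each subset, with Th17 acetate replicate 1 far above the other 2 acetate arrays. The mean effect was 0.49 ± 0.17 (adjusted p = 0.0392), made of 0.58 for Th17, 0.26 for Treg and 0.63 for Th1 cultures. It was lost in 12 of 21 alternatives: on the signals as deposited (adjusted p = 0.126), with a replicate block (adjusted p = 0.0629), and without any 1 of 10 arrays, which were every control array of the 3 subsets, both Treg acetate arrays and Th1 acetate replicate 2 (adjusted p values of 0.0539 to 0.107).

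Brd2, a bromodomain protein of the BET family that binds acetylated histones, fell in Treg cultures and in the mean effect. Signals were 625, 632 and 552 in Th17 acetate arrays against 628, 836 and 766 in Th17 controls, which overlapped. Treg acetate arrays had 499.6 and 526 against 881 and 892 in Treg controls, and Th1 acetate arrays 496 and 553 against 759.9 and 646 in Th1 controls, both without overlap. The difference was -0.29 ± 0.13 in Th17 (adjusted p = 0.14), -0.79 ± 0.16 in Treg (adjusted p = 0.00831) and -0.42 ± 0.16 in Th1 cultures (adjusted p = 0.157), and -0.50 ± 0.09 in the mean effect (adjusted p = 0.00111). The Treg call was lost on the signals as deposited (-0.83, adjusted p = 0.0881) and without Treg acetate replicate 1 (adjusted p = 0.0784), Treg control replicate 1 (adjusted p = 0.059) or Treg control replicate 2 (adjusted p = 0.0616). Brd3, another BET protein, differed by -0.16, -0.00 and 0.03 in Th17, Treg and Th1 cultures, and Sin3a, the scaffold of a complex around Hdac1 and Hdac2, by 0.01, 0.13 and -0.27. Neither passed.

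**Figure D2:**
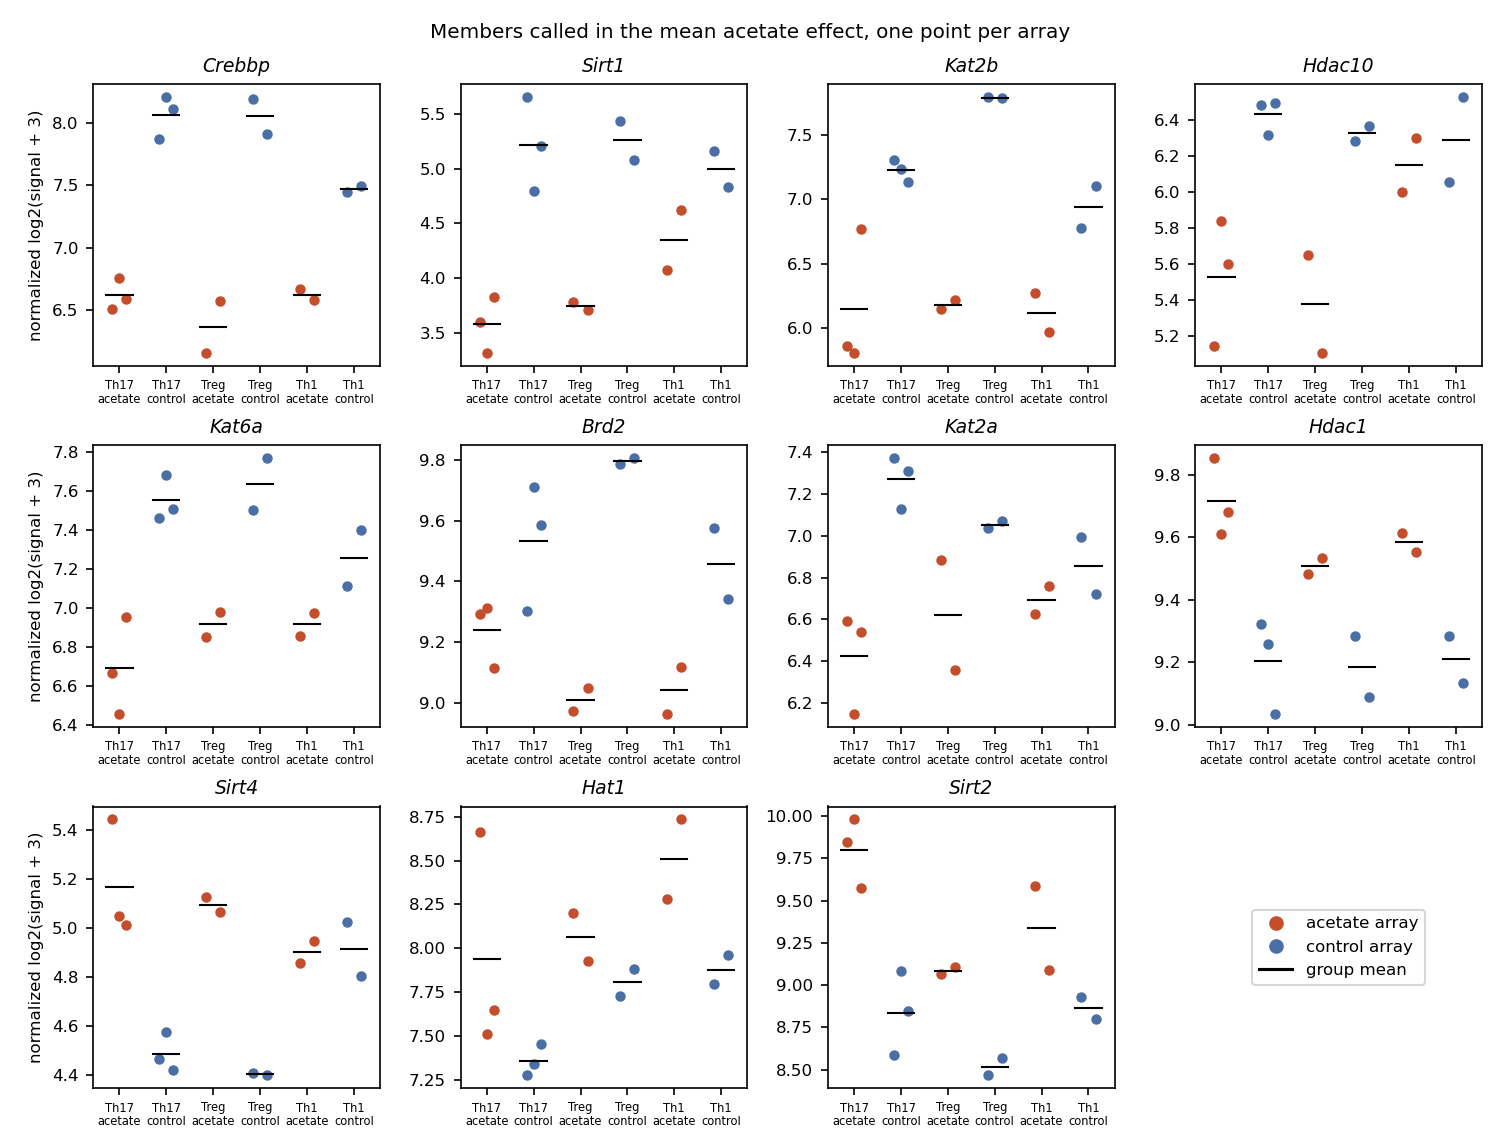
Normalized log2(signal + 3) of the 11 genes called in the mean acetate effect, with 1 point per array and a bar at the mean of each group; each panel has its own axis range. Acetate arrays of Crebbp, Sirt1, Kat2b and Kat6a lie below the controls of their subset in all 3 subsets, and those of Hdac1, Sirt2 and Hat1 above.

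The acetate effects of these genes were not shown to differ between subsets. By limma's F test on the differences between the 3 effects, 0 of the 30 genes passed, against 0.797% of all genes, and 2 had an unadjusted p under 0.05. These were Hdac5 (adjusted p = 0.256) and Crebbp (adjusted p = 0.279). The effect on Hdac5 was larger by 0.99 ± 0.31 in Th17 than in Th1 cultures (adjusted p = 0.21). The decrease of Crebbp was larger by 0.84 ± 0.28 in Treg than in Th1 cultures, coded as -0.84 (adjusted p = 0.232). The calls made in Th17 and not in Th1 cultures are therefore no evidence of a difference between them, and Th17 cultures had more arrays.

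Several genes have more than 1 probe set, and those of Crebbp and Kat2b pointed the same way. In a fit over all probe sets with 1 symbol, the other 3 probe sets of Crebbp had differences of -1.48, -0.92 and -1.16 in Th17, -1.67, -1.11 and -1.88 in Treg and -0.92, -0.57 and -0.62 in Th1 cultures. The first of these was called in all 3 subsets. The 2 other Kat2b probe sets differed by -1.05 and -0.82 in the mean effect and were both called. For Kat2a, 1 further probe set was called lower in Th17 cultures (-1.13, adjusted p = 0.0136), whereas another differed by 0.11. For Kat6a the others differed by -0.28 and -0.76 in the mean effect, with no call. Brd2's second probe set was called in the mean effect (-0.37, adjusted p = 0.0251).

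Probe sets disagreed for Brd3, where its second brightest was called lower in Treg cultures (-0.89, adjusted p = 0.0429) and in the mean effect (-0.55, adjusted p = 0.00819), while the brightest one differed by -0.00 and -0.05. Dimmer probe sets of Hdac2 (-0.70, adjusted p = 0.0493) and Hdac4 (-0.71, adjusted p = 0.0365) were called lower in the mean effect, unlike the brightest probe sets of these genes used above. A statement that Hdac2, Hdac4 or Brd3 did not pass thus holds for the brightest probe set. In this fit over more features, the brightest probe sets of Hdac10 and Kat6a in Treg cultures (adjusted p = 0.0801 and 0.0672) and of Crebbp in Th1 cultures (adjusted p = 0.0637) did not pass.

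**Figure D3:**
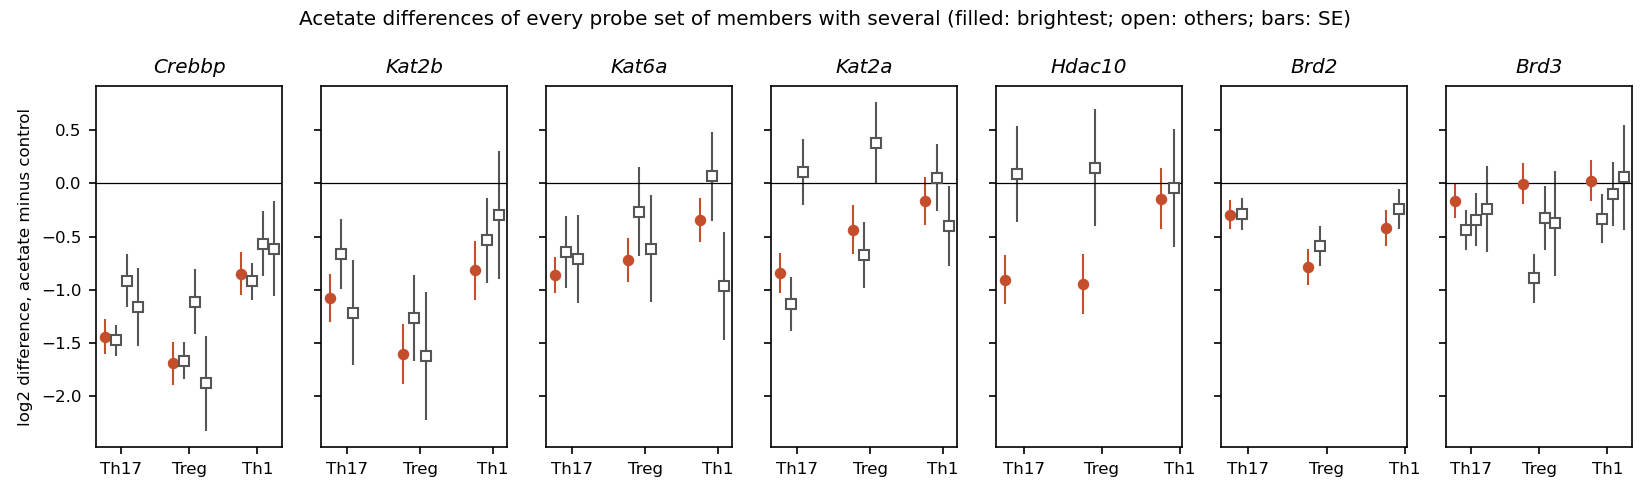
Log2 difference (acetate minus control) of every probe set of 7 genes with several, by subset, with SE bars; filled circles mark the brightest probe set and open squares the others. All 4 probe sets of Crebbp and all 3 of Kat2b lie below 0 in each subset, while those of Hdac10 separate in Th17 and Treg cultures.

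Few differences of these genes between subsets passed the test. Log2 differences in untreated cultures ran between -1.65 and 1.15 for Th17 against Th1, -0.54 and 0.85 for Treg against Th1 and -1.59 and 1.61 for Th17 against Treg. Those of -1.65 and -1.59 were of Hdac11, which averaged 6.71 ± 6.27 in Th17 controls (SD, n = 3), near the bottom of the scale. Those of 1.15 and 1.61 were of Kat6b, at 76.1 ± 18.5 in Th17 controls. Arrays of the 2 subsets did not overlap for 18, 13 and 18 of the 30 genes in these comparisons, against 43.9%, 49.8% and 54.6% of all genes. For Th17 against Th1 these included 9 of the 10 acetyltransferases, without a common direction. Kat2a, Kat2b, Kat6a, Kat6b, Ep300 and Crebbp were above in Th17 controls, and Hat1, Kat7 and Kat8 below. None of them passed limma's test, and 2 of the 10 acetyltransferases had an unadjusted p under 0.05. In untreated cultures 0 of the 30 genes passed limma's test for Th17 against Th1 (6.60% of all genes passed, 2.99% higher and 3.62% lower, and 6 of the 30 had an unadjusted p under 0.05), and 0 for Treg against Th1 (4.99% of all genes, 2.85% higher and 2.14% lower; 3 of the 30 at an unadjusted p under 0.05). For Th17 against Treg 1 passed, against 11.3% of all genes (5.31% higher and 6.01% lower). That gene was Hdac6, the tubulin deacetylase, with 84.5, 74.0 and 63.8 in Th17 controls against 48.9 and 40.6 in Treg controls, without overlap. Its difference was 0.69 ± 0.20 (adjusted p = 0.0403), and the call was lost with a common trimmed mean (adjusted p = 0.094), without the filter on low values (adjusted p = 0.0911) and without any 1 of 7 arrays, the 3 Th17 controls and all 4 Treg arrays (adjusted p values of 0.0502 to 0.293). These 3 comparisons share their control arrays. Crebbp was 0.59 higher in untreated Th17 than in untreated Th1 cultures (adjusted p = 0.0729) and 0.58 higher in Treg than in Th1 cultures (adjusted p = 0.12), neither of which passed. On the signals as deposited, where the median of all genes was 0.62 higher in Th17 than in Th1 controls, 12 of the 30 genes were called higher in Th17, and genes called higher and lower numbered 2906 and 119 beside 326 and 395 after quantile normalization. The same counts were 204 and 62 beside 311 and 234 for Treg against Th1, and 1327 and 228 beside 580 and 656 for Th17 against Treg.

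In cultures with acetate 0 of the 30 genes passed for Th17 against Th1 (5.23% of all genes, 3.22% higher and 2.02% lower; 7 of the 30 at an unadjusted p under 0.05) and 0 for Th17 against Treg (0.925%; 3 at an unadjusted p under 0.05). For Treg against Th1 1 passed, against 1.44% of all genes (1.05% higher and 0.385% lower). Hdac2 had 192 and 157 in Treg acetate arrays against 312 and 346 in Th1 acetate arrays, without overlap, a difference of -0.91 ± 0.18 (adjusted p = 0.0337). That call was lost in 11 of 21 alternatives, among them 8 left-out arrays: both Treg acetate and both Treg control arrays, Th1 acetate replicate 2 and the 3 Th17 controls (adjusted p values of 0.0505 to 0.286). Without Th17 acetate replicate 1, 5 of the 30 genes passed for Th17 against Th1 with acetate. Calls over all genes rose as well, to 658 higher and 500 lower of 10916, beside 351 and 220 with every array kept. Over all genes, calls higher and lower on the signals as deposited numbered 310 and 109 for Th17 against Th1, 58 and 45 for Treg against Th1 and 60 and 17 for Th17 against Treg, beside 351 and 220, 115 and 42, and 47 and 54 after quantile normalization.

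Promoter sequence could be shown for 3 of the 11 genes called in the mean effect. RefSeq (GRCm38.p6) listed a promoter for 8 of the 11, and in 3 of these a window of bases 250 to 51 before the start lay outside every annotated gene. Sirt1 and Kat2a fell and Hat1 rose, so the windows allow genes of opposite direction to be set side by side. Windows lie at chr10:63339086-63339285 (minus strand) for Sirt1, chr11:100712518-100712717 (minus strand) for Kat2a and chr2:71389010-71389209 (plus strand) for Hat1, and capitals mark matches on either strand to a GC box (GGGCGG), an E-box (CACGTG) or a CCAAT box (CCAAT).
Sirt1: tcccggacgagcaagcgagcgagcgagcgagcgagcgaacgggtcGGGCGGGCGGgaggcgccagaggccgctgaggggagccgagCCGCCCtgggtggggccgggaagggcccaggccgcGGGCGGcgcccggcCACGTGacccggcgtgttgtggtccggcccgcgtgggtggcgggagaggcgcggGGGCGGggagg
Kat2a: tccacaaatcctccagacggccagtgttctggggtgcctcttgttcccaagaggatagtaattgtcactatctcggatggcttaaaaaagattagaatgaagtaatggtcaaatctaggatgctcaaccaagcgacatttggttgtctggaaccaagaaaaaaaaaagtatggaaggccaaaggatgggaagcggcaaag
Hat1: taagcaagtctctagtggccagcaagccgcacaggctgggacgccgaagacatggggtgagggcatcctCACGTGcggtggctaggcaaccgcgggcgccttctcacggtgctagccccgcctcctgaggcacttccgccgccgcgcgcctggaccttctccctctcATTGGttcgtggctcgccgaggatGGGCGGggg
The Sirt1 window had 5 GC boxes, of which 2 overlap, and 1 E-box in 81.0% G and C, and the Hat1 window 1 GC box, 1 E-box and 1 CCAAT box in 68.0%. In the Kat2a window, at 44.0% G and C, none of these letters occurred. Of 32851 windows of the same length and position, 24.6% held a GC box, 4.34% an E-box and 28.4% a CCAAT box, and the median G and C content was 51.5%. An E-box was thus in 1 gene that fell and in 1 that rose. Searches for an ETS motif (CCGGAAG), a CRE (TGACGTCA) and a TATA box (TATAAA) gave 0 matches in the 3 windows, against 3.98%, 0.828% and 9.14% of all windows.

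Genes that work with these enzymes were described in 4 further lists. Of 31 acetyltransferase complex subunits tested, 6 fell and 1 rose with acetate in Th17 cultures, 5 fell in Treg and 1 in Th1 cultures, and 13 fell and 1 rose in the mean effect, against 8.66%, 5.44%, 1.91% and 14.1% of all genes called lower. The median log2 difference was -0.37, -0.36, -0.20 and -0.35 in the same order. Ncoa2, a nuclear receptor coactivator that recruits CBP, fell by 1.53 on the log2 scale in Th17 and by 1.51 in Treg cultures. Epc1, a scaffold of the Kat5 complex, fell by 1.49 and 0.95, and Msl1, a scaffold of a Kat8 complex, fell by 1.08 for Th17, 1.29 for Treg and 1.26 for Th1 cultures. Jade2, a partner of Kat7, fell in Treg cultures (adjusted p = 0.00256). Supt3, a SAGA subunit, rose by 0.92 in Th17 cultures.

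Of 28 other acetyl-lysine readers tested, 5 fell with acetate in Th17 cultures (17.9%), 3 in Treg cultures (10.7%) and 2 in Th1 cultures (7.14%), against 8.66%, 5.44% and 1.91% of all genes called lower, and none rose. In the mean effect 9 fell and 1 rose, 35.7% against 31.8% of all genes called in either direction. Atad2b, a bromodomain ATPase, fell by 1.15 for Th17, 1.15 for Treg and 0.99 for Th1 cultures. Zmynd8, a bromodomain corepressor, fell by 0.64, 1.13 and 0.83. Pbrm1, a subunit of the PBAF remodeller, and Brd1, a partner of Kat7 and Kat6a, fell by 0.82 and 0.75 in Th17 cultures, and Phip by 0.75 in Treg cultures.

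Of 30 deacetylase complex subunits tested, 2 fell and 1 rose in Th17 cultures (10% against 20.3% of all genes), and 6 fell and 3 rose in the mean effect (30% against 31.8%), at or below the background. In Treg cultures 4 fell and 2 rose (20% against 12.5%), and in Th1 cultures 2 fell (6.67% against 3.98%). Chd3, a remodelling ATPase of NuRD, had log2 differences of -1.52, -1.47 and -1.27 in Th17, Treg and Th1 cultures, and Brms1l, a Sin3 complex subunit, of -0.94, -0.82 and -0.79, each of which passed. In Treg cultures Rcor2, a CoREST scaffold, rose by 2.46 and Sap30, a Sin3 subunit, by 1.42, while Arid4a, which binds Sin3, fell by 1.05. Gps2, an Ncor complex subunit, rose by 0.50 in Th17 cultures.

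A further list held genes that make or use acetyl-CoA and NAD, with 15 tested. Of these, 1 rose and 2 fell with acetate in Th17 cultures (20% against 20.3% of all genes). In Treg cultures 1 fell (6.67% against 12.5%). In Th1 cultures 0 passed limma's test (3.98% of all genes), and 2 of the 15 had an unadjusted p under 0.05. These shares are at or below the background. Between untreated Treg and Th1 cultures 3 of the 15 (20%) passed, and likewise 3 between untreated Th17 and Treg cultures, where 4.99% and 11.3% of all genes did. These were Acly, Acss1 and Acat1 in the first comparison, and Acly, Acss1 and Nmnat2 in the second. For untreated Th17 against Th1 Acat1 alone passed (-0.58, adjusted p = 0.0223, limma), where 6.60% of all genes did. With acetate Acat1 alone passed for Th17 against Th1 (-0.59), where 5.23% of all genes did. No gene of this list passed with acetate for Treg against Th1 or Th17 against Treg. Acss2, which makes acetyl-CoA from acetate outside mitochondria, rose by 0.86 in Th17 cultures (adjusted p = 0.0322). Acly, which makes it from citrate, fell by 0.66 and Nadk, which phosphorylates NAD, by 0.45. Acss1, the mitochondrial enzyme that makes acetyl-CoA from acetate, fell by 1.27 in Treg cultures (adjusted p = 0.0322). In untreated cultures Acss1 was 2.15 higher in Treg than in Th1 cultures (adjusted p = 0.00409) and lower in Th17 than in Treg cultures by 2.12, coded as -2.12 (adjusted p = 0.00101).

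**Figure D4:**
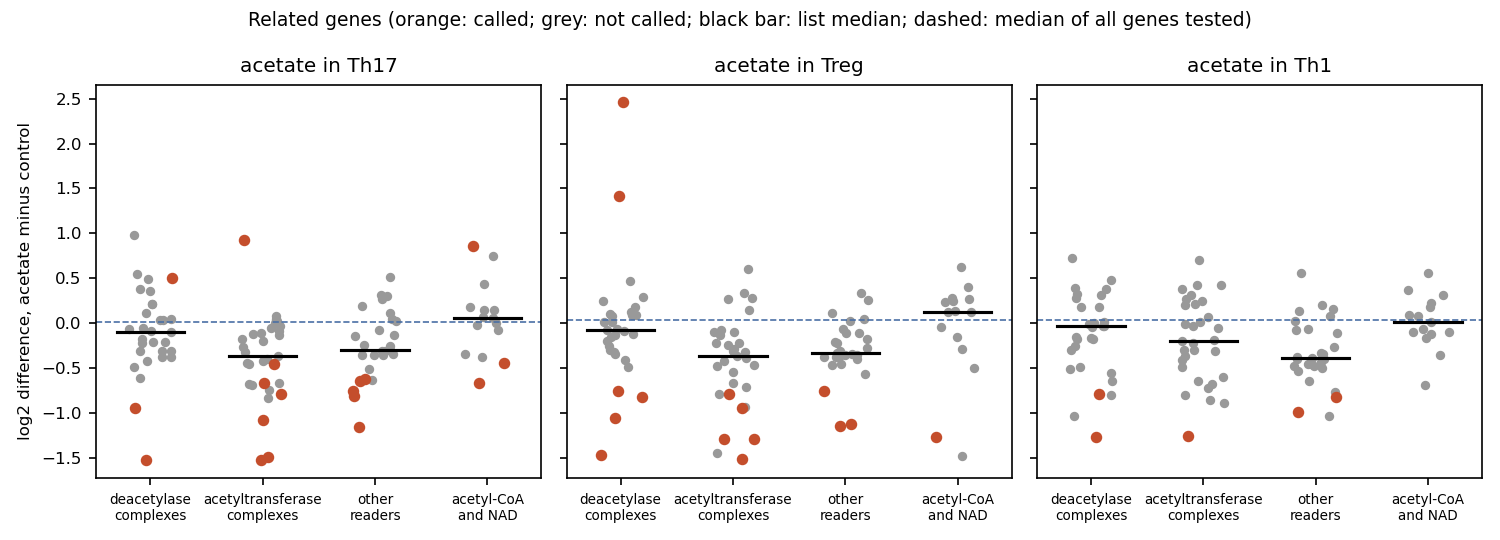
Log2 difference (acetate minus control) of each gene tested in 4 lists of related genes, by subset; orange points are called at an adjusted p under 0.05, black bars mark list medians and the dashed line the median of all genes tested. Medians of the acetyltransferase complex subunits and of the other readers lie below the dashed line in all 3 panels, and Rcor2 is the highest point in Treg cultures.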

How the data were processed

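The deposited files hold signal intensities of 45101 probe sets on each of 14 arrays, and per the submitters' processing notes MAS5 gave these values. The target of any array scaling is not given in the sources used here. From these intensities log2(signal + 3) was computed and quantile normalized over all arrays with limma 3.58.1 in R 4.3.3. Probe sets with 1 symbol in the platform annotation numbered 34958, with several 932 and with none 9211. For each gene the probe set of highest mean was kept, and genes under the 40th percentile of mean log2 (3.60) were left out. A model with 6 group means was fitted by lmFit and eBayes with a trend, with 8 residual degrees of freedom, and p-values were adjusted by Benjamini-Hochberg over the 10916 genes tested. Differences are on the log2(signal + 3) scale, which understates changes of dim genes, and normalized signals are the same values turned back. Levels of different probe sets were not compared. The number of arrays limits the precision. The 32 genes and the lists were chosen with earlier results of these data known. Of the 32 genes, those called in a comparison are named with full values, as are Hdac1, Hdac2, Hdac3, Sirt1, Ep300 and Crebbp in every acetate comparison. Of each wider list up to 4 called genes are named for acetate in each subset, by the largest change. Genes of the wider lists that were called only in the mean effect or between subsets are mostly not named. Brms1l in Treg cultures was added after its value was seen. On simulated data with 10916 genes the fit recovered 52% of changes of 1 and 86% of changes of 2 on the log2 scale in Th17 cultures. The shares were 34% and 76% in Treg and 30% and 84% in Th1 cultures. There 100 genes per size were changed in 1 group, all other means were equal between groups, and noise was independent and normal. Unchanged genes called numbered 2, 2 and 8. Many more genes were called with acetate in Th17 and Treg cultures, so recovery in the real data may differ. The alternatives were the signals as deposited, a common trimmed mean, other pseudocounts, no filter, the mean of all probe sets, a replicate block and each array left out in turn.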

Additional observations from a re-analysis of the deposited data

How the results depend on the processing

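For the single-gene differences described in full, recomputed under 21 alternatives, 842 values kept their side of the threshold, 98 lost a call and 5 gained one, and none of the calls changed sign. Over all alternatives the number of the 30 genes called with acetate was 8 to 12 in Th17 cultures and 9 to 15 in the mean effect. In Treg cultures it was 2 on the signals as deposited, 4 without the filter, 4 with all probe sets averaged and 2 to 6 with an array left out, with 2 without Treg acetate replicate 1 or Treg control replicate 1. In Th1 cultures it was 0 on the signals as deposited, 0 with all probe sets averaged and 0 to 2 with an array left out. For untreated Th17 against Th1 it was 12 on the signals as deposited, 1 with all probe sets averaged and 0 to 2 with an array left out, and for untreated Treg against Th1 0 to 1. For untreated Th17 against Treg it was 3 on the signals as deposited, 0 with a common trimmed mean, 0 without the filter and 0 to 2 with an array left out. With acetate it was 0 to 5 for Th17 against Th1 with an array left out, and for Treg against Th1 0 on the signals as deposited, 0 with all probe sets averaged and 0 to 2 with an array left out. It stayed at 0 for Th17 against Treg with acetate and in the F test. Calls over all genes, higher and lower, also moved with the setting. In Th17 cultures they were 467 and 1461 on the signals as deposited and 1214 and 901 without Th17 acetate replicate 3. The main fit gave 1275 and 945 there. In Treg cultures they were 252 and 298 as deposited and 579 and 411 with all probe sets averaged, beside 769 and 594. In Th1 cultures the same settings gave 178 and 45, and 169 and 117, beside 226 and 209. The cause of these changes was not tested.

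Same-numbered acetate and control arrays correlated in their deviations at 0.152, 0.160 and -0.0631 for Th17, 0.0638 for Treg and -0.159 for Th1 cultures, so the numbers were not taken to pair them. Of 6 Th17 arrays, 4 correlated best with their own number. With a replicate block the 30 genes gave 9 calls for Th17, 4 for Treg and 0 for Th1 cultures. They gave 10 in the mean effect and 0 for Treg against Th1 with acetate. Over all genes, calls higher and lower with the block numbered 1087 and 772, 610 and 453, 133 and 93, 1754 and 1391, and 56 and 17 in the same order. Without the block these counts were 1275 and 945, 769 and 594, 226 and 209, 1925 and 1544, and 115 and 42.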
